A study of Homo sapiens with 6 samples.

Results

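The 2-oxoglutarate oxygenases described here are 44 genes, chosen by name from the 23710 gene symbols in the count files because their enzymes use the same iron and 2-oxoglutarate as the TET dioxygenases. The TET genes and the KDM1 amine oxidases were left out. Transcripts were counted in K562, a human line established from a chronic myelogenous leukaemia. Of 6 libraries, 3 were from cells given 3FM-dC at 20 µM together with THU at 2 mM for 24 h, and 3 from cells given DMSO, the solvent of both compounds, for as long. The labels name the compounds only by these abbreviations. No group had 3FM-dC or THU alone, so their effects cannot be told apart. The cells of both groups came from passages 13 to 16 of this single line, and whether the replicates were separate cultures is not stated, so the spread behind each p-value may be only technical. The series presents the study as one on a small-molecule activator of TET2.

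These enzymes bind ferrous iron and couple the oxidation of a substrate to the breakdown of 2-oxoglutarate and oxygen into succinate and carbon dioxide. Most hydroxylate a carbon, and where the carbon belongs to a methyl group on nitrogen the product falls apart and the methyl group is lost. The family includes the JmjC demethylases of histones, the hydroxylases that mark the hypoxia-inducible factor HIF for destruction, the prolyl and lysyl hydroxylases of collagen, and the AlkB enzymes that demethylate nucleic acids. Several are themselves known HIF target genes, such as KDM3A, EGLN3 and P4HA1.

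Expression is given as CPM (read counts of a gene per 1e6 counts of its library, after scaling), for the libraries in the order of replicates 1, 2 and 3. A gene changed if its adjusted p was under 0.05 in the quasi-likelihood test of edgeR, adjusted over all genes by the Benjamini-Hochberg method. Library totals ran from 18408826 to 22750278 gene counts, so that 3 counts were worth 0.132 to 0.163 CPM before TMM scaling. Of the 44 genes 42 passed the filter on low counts, and EGLN2 and P4HA3 did not. Among the 42, 19 were higher and 14 lower in treated cells and 9 did not pass the test. The changed share of 78.6% stands beside 66.4% of all 12339 genes tested, of which 33.8% were higher and 32.7% lower. Over all genes, counts of 4167 higher and 4031 lower became 5059 and 3185 with libraries scaled by total counts, while those of the oxygenases became 21 and 11. The median log2 fold change was 0.15 for the 42 oxygenases and 0.01 for all genes. The CPM values of the groups did not overlap for 33 of the 42 (78.6%), against 70.0% of all genes. Changes were mostly moderate: 9 of the 42 (21.4%) changed at least 1.5-fold, against 25.4% of all genes, and 2 of the 42 (4.8%) at least 2-fold, against 12.7%. These 2 were the histone demethylase genes KDM6B and KDM4A.

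**Figure D1:**
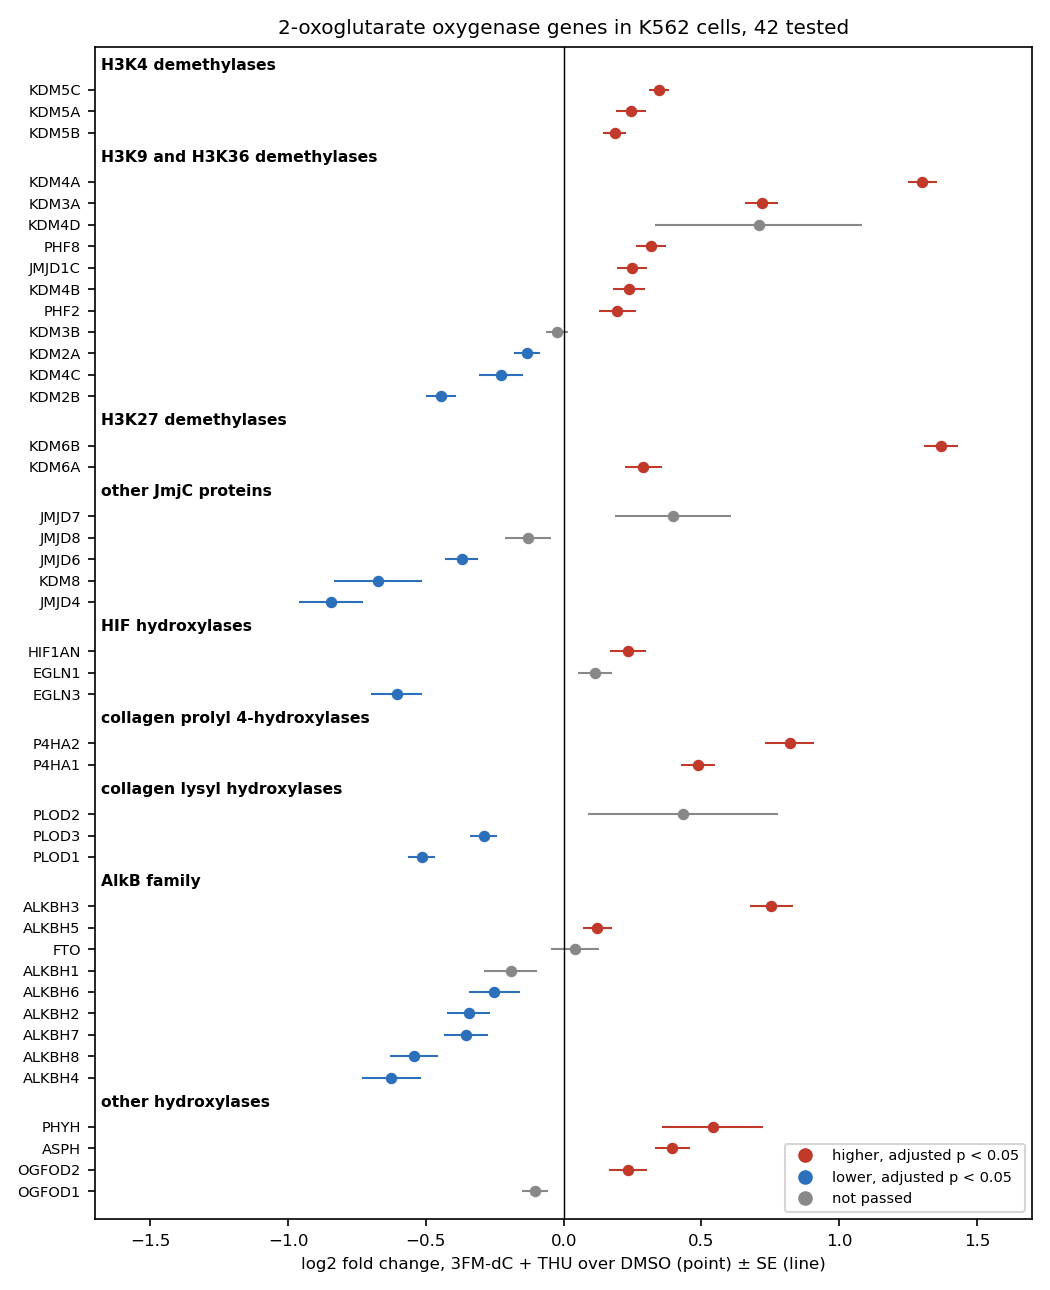
Log2 fold change of treated over DMSO cells for the 42 tested genes, grouped by enzyme class, with points for the estimate, lines for its standard error and colour for the result of edgeR's test. KDM6B (1.37) and KDM4A (1.30) lie farthest to the right and JMJD4 (-0.84) farthest to the left, and the demethylase classes lie mostly to the right of 0 while most of the AlkB class lies to the left.

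The promoters of the 2 genes with the largest rises and the 2 with the largest falls are printed to show the starting sequence of each. They run from 250 bases before to 50 bases after the RefSeq transcript start (build GRCh38.p14), 5′ to 3′ on the strand of the gene. Capitals mark the core of the HIF response element, searched as ACGTG and GCGTG on both strands. KDM6B lies at chr17:7833967-7834266 (plus strand), KDM4A at chr1:43649899-43650198 (plus strand), JMJD4 at chr1:227735253-227735552 (minus strand) and KDM8 at chr16:27203276-27203575 (plus strand).
KDM6B: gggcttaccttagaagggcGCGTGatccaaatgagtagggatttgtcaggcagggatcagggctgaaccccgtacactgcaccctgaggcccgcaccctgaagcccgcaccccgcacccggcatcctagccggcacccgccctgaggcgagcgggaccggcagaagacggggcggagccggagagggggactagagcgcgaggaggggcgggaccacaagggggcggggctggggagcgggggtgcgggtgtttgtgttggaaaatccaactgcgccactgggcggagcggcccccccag
KDM4A: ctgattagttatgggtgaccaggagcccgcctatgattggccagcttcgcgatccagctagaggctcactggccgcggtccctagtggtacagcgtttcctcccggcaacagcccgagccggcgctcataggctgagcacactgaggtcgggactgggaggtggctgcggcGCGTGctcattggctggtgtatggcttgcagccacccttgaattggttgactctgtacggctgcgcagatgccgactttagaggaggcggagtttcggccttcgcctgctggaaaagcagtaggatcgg
JMJD4: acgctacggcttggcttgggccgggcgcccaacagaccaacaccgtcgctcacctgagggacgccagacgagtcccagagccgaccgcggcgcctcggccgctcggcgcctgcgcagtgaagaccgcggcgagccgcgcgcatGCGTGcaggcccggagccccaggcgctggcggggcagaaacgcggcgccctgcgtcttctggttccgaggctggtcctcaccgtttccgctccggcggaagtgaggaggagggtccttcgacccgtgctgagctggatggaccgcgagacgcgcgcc
KDM8: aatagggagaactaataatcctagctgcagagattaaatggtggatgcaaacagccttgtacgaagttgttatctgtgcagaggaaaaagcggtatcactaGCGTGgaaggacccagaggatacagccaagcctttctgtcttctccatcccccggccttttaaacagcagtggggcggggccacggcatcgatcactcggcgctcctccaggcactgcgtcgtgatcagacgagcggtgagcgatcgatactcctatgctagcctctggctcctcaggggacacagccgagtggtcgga

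Each of these 4 windows holds 1 match, GCGTG, beginning 231 (KDM6B), 79 (KDM4A), 107 (JMJD4) and 149 (KDM8) bases before the start. The table of promoters had 41 of the 44 genes, and 27 of the 41 windows (65.9%) held a core match, among them 12 of 18 of the genes that rose and 10 of 13 that fell. Of the promoters of 8946 tested genes in the same table, 64.1% held one, so the share among the oxygenases was near that of expressed genes. TGATGNAA, the core of the element bound by ATF4 and CEBP factors, was searched on both strands and was in none of the 41 windows and in 1.68% of those 8946. The E-box CACGTG, which contains ACGTG, was in 4 of the 41 windows and in 7.26% of all 35116 promoters of the table. Those 35116 include genes not tested here, and the E-box share of the 8946 was not computed, so these shares are not alike. A match describes the letters of the window and is not evidence of binding.

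Of the 16 histone lysine demethylase genes, all tested, 11 rose, 3 fell and 2 did not pass, with a median log2 fold change of 0.25. Over all genes tested, 33.8% rose and 32.7% fell. With total counts 11 of the 16 rose and 1 fell. Counted against a minimum fold change of 1.2, 4 rose (KDM6B, KDM4A, KDM3A and KDM5C) and 1 fell (KDM2B). At that minimum 21.4% of all genes rose and 17.2% fell, so the share of rises, 4 of 16, was near that of all genes.

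KDM6B, also called JMJD3, removes methyl groups from lysine 27 of histone H3, the mark that Polycomb complexes place on silent genes. It had 32.7, 32.6 and 35.2 CPM in the DMSO libraries and 83.6, 92.5 and 83.9 CPM in the treated ones. Every treated library was above every DMSO library, and the rise was 2.58-fold (log2 fold change 1.37, SE 0.06, edgeR adjusted p = 1.34e-17). KDM6A, or UTX, an X-linked enzyme of the same specificity that works in complexes with the H3K4 methyltransferases MLL2 and MLL3, had 56.0, 54.4 and 46.1 CPM in DMSO against 60.5, 61.6 and 68.6 CPM in treated cells. The groups did not overlap but DMSO replicate 3 lay apart from the other DMSO libraries, and the rise was small (0.29, SE 0.07, edgeR adjusted p = 0.000453). Per kilobase of exon, KDM6B made up 38.8% ± 3.51 of the transcripts of the pair in DMSO and 57.3% ± 2.52 in treated cells (SD, n = 3 libraries each). The order of the pair was thus turned over in all 3 treated libraries, where KDM6B held between 54.6% and 59.6%.

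KDM4A, which demethylates lysines 9 and 36 of histone H3, had 43.6, 42.7 and 46.1 CPM in DMSO against 107, 111 and 109 CPM in treated cells. The groups were far apart and each was narrow, and the rise was 2.47-fold (log2 fold change 1.30, SE 0.05, edgeR adjusted p = 1.83e-18). Its closest relatives moved little: KDM4B rose by 0.24 on the log2 scale, from 54.1 ± 0.401 to 63.6 ± 3.78 CPM, and KDM4C went from 29.4 ± 0.593 to 25.1 ± 2.26 CPM. The fall of KDM4C (-0.23, edgeR adjusted p = 0.0135) was lost with total counts (0.136) and, without treated replicate 3, at 0.110, within alternatives that ran from 0.00257 to 0.637. KDM4D, a gene with a single coding exon best known from testis, was near the limit of detection, with 35, 25 and 20 counts in DMSO and 18, 47 and 78 in treated cells. Its treated libraries were more spread than the DMSO ones (SD 1.37 and 0.517 CPM), and KDM4D did not pass (edgeR adjusted p = 0.0976). It did pass without DMSO replicate 1 (0.0481) or treated replicate 1 (0.00725), within 0.00725 to 0.728. Per kilobase, KDM4A rose from 54.9% ± 1.64 to 73.7% ± 1.29 of the transcripts of KDM4A to KDM4D, while KDM4C went from 18.3% ± 0.348 to 8.50% ± 0.776. KDM4A-AS1, an antisense gene that shares 8.97% of the exon bases of KDM4A in GENCODE 29, had 1.05, 1.62 and 1.82 CPM in DMSO against 0.768, 1.48 and 1.59 CPM in treated cells and did not pass. AL451062.3, a protein-coding gene on the same strand that is not among the counted symbols, shares 40.2% of the exon bases of KDM4A, so its reads may be counted as KDM4A.

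KDM3A, a demethylase of lysine 9 of histone H3, had 54.2, 51.6 and 52.0 CPM in DMSO against 80.7, 95.9 and 83.0 CPM in treated cells. The treated libraries were all higher, treated replicate 2 the most, and the rise was 1.65-fold (log2 fold change 0.72, SE 0.06, edgeR adjusted p = 2.43e-11). Of its relatives, JMJD1C rose by 0.25 and KDM3B did not pass (171 ± 2.35 and 168 ± 3.99 CPM). KDM3B still held most of the transcripts of the 3 genes per kilobase, 64.3% ± 0.302 in DMSO and 57.0% ± 2.28 in treated cells, while KDM3A went from 11.7% ± 0.372 to 17.4% ± 1.45.

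The H3K4 demethylases KDM5A, KDM5B and KDM5C rose together by small amounts, of 0.24, 0.19 and 0.35 on the log2 scale. KDM5C, an X-linked gene and per kilobase the most abundant of the 3, had 251, 247 and 254 CPM in DMSO against 316, 320 and 322 CPM in treated cells. Its groups were narrow and did not overlap (edgeR adjusted p = 1.39e-09). Its share of the 3 genes per kilobase was 70.7% ± 0.961 in DMSO and 72.6% ± 0.439 in treated cells. PHF8, X-linked as well, rose from 59.4 ± 3.34 to 73.9 ± 0.972 CPM, and PHF2 from 35.5 ± 0.787 to 40.6 ± 2.01 CPM, both of them enzymes whose PHD finger binds methylated lysine 4. The call of PHF2 (0.20, edgeR adjusted p = 0.0119) was lost when treated replicate 1 was left out (0.0677), within 0.000414 to 0.874.

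The demethylases that bind unmethylated CpG islands through a CXXC zinc finger went the other way. KDM2B, which brings a Polycomb complex to CpG islands, fell from 89.7, 92.3 and 90.3 CPM to 71.4, 61.9 and 66.7 CPM. The groups were well apart (log2 fold change -0.45, SE 0.05, edgeR adjusted p = 3.40e-08). KDM2A, an H3K36 demethylase, fell by 0.13 on the log2 scale, from 111 ± 2.76 to 101 ± 3.57 CPM (edgeR adjusted p = 0.0134). That call was lost with total counts (0.417), with a minimum mean of 5 CPM (0.0744) and without DMSO replicate 1 (0.0632), over a range of 0.00601 to 1.

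**Figure D2:**
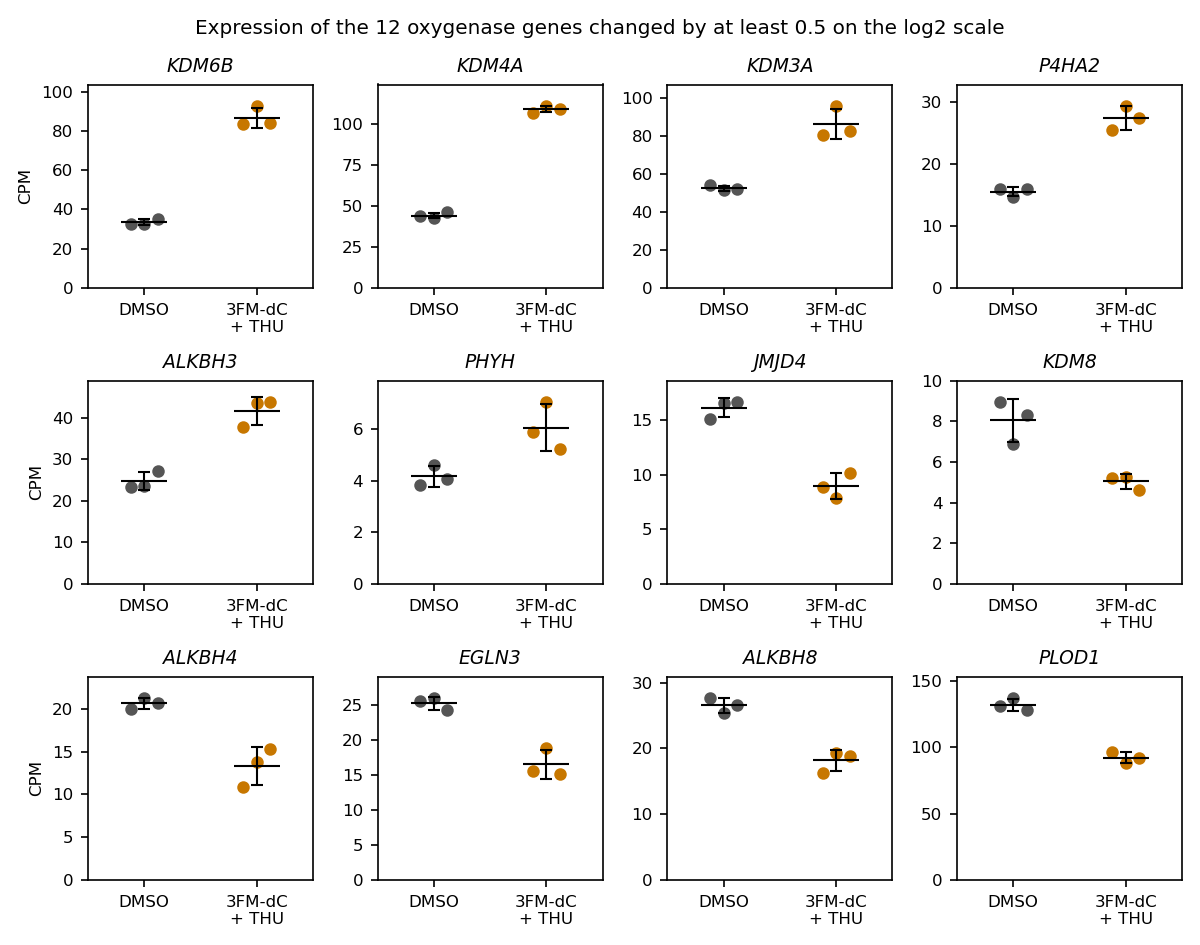
Expression in CPM of the 12 oxygenase genes that changed by at least 0.5 on the log2 scale, with a point for each library and bars for the mean ± SD of 3 libraries per group. The top row and the left pair of the middle row rose, such as KDM6B from 33.5 to 86.7 CPM, and the other 6 fell, and the points of the groups do not overlap in any panel.

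The JmjC proteins outside the histone demethylase classes fell (3 of 5) or did not pass (2), and with total counts 1 rose and 3 fell. Of all genes tested, 32.7% fell. JMJD4, which hydroxylates the translation termination factor eRF1, had 15.1, 16.6 and 16.6 CPM in DMSO against 8.86, 7.85 and 10.2 CPM in treated cells. This was the largest fall of the 42 (1.80-fold, log2 fold change -0.84, SE 0.12, edgeR adjusted p = 3.68e-07), with no overlap. JMJD4 shares 53.8% of its exon bases with SNAP47 on the opposite strand in GENCODE 29, SNAP47 fell by 0.17 on the log2 scale, and its part in the result was not tested. KDM8, a JmjC protein also called JMJD5, had 8.93, 6.89 and 8.30 CPM in DMSO against 5.22, 5.28 and 4.64 CPM in treated cells. The groups did not overlap (log2 fold change -0.67, SE 0.16, edgeR adjusted p = 0.000538). JMJD6, a lysyl hydroxylase of splicing factors such as U2AF2, fell by 0.37 on the log2 scale, from 62.5 ± 0.647 to 48.4 ± 3.38 CPM.

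JMJD8, a protein of the endoplasmic reticulum, had 23.9 ± 0.757 CPM in DMSO against 21.9 ± 1.69 CPM in treated cells and did not pass (edgeR adjusted p = 0.182). It shares 37.4% of its exon bases with STUB1 on the opposite strand. JMJD7, which hydroxylates the GTPases DRG1 and DRG2, had 3.45 ± 0.515 and 4.54 ± 0.773 CPM and did not pass (0.0980), but did with total counts (0.0430) or treated replicate 3 left out (0.0471), and its alternatives ran from 0.0430 to 0.261. The readthrough gene JMJD7-PLA2G4B covers 80.1% of the exon bases of JMJD7 and had 0 counts in all 6 libraries, so reads in the shared exons may have been set aside and the level of JMJD7 is uncertain.

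Of the HIF hydroxylases 1 rose, 1 fell, 1 did not pass and 1 was not tested. At 33.3% higher and 33.3% lower among the 3 tested, this class was near the shares of all genes (33.8% and 32.7%). Scaling by total counts gave 2 higher and 1 lower. EGLN1, or PHD2, the main oxygen-dependent prolyl hydroxylase of HIF, had 79.1, 73.0 and 63.3 CPM in DMSO against 75.2, 79.3 and 78.0 CPM in treated cells. The groups overlapped (log2 fold change 0.11, edgeR adjusted p = 0.107). It passed with total counts (0.00411), with a minimum mean of 5 CPM (0.0271) and without DMSO replicate 1 (0.0157), over a range of 0.00411 to 1. EGLN3, or PHD3, had 25.6, 26.0 and 24.3 CPM in DMSO against 15.6, 18.9 and 15.2 CPM in treated cells. Its groups did not overlap, and the fall was 1.52-fold (log2 fold change -0.61, SE 0.09, edgeR adjusted p = 1.86e-06). Per kilobase, EGLN1 made up 74.1% ± 1.64 of the EGLN1 and EGLN3 transcripts in DMSO and between 80.9% and 83.8% in the treated libraries. HIF1AN, the asparaginyl hydroxylase FIH that blocks the coactivator site of HIF, had 40.3, 41.6 and 41.9 CPM in DMSO against 45.1, 51.8 and 48.4 CPM in treated cells. All treated libraries were higher, by a small amount (0.23, SE 0.06, edgeR adjusted p = 0.00253).

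EGLN2, or PHD1, had 7, 8 and 9 counts in DMSO and 5, 7 and 4 in treated cells and was not tested. It shares 30.6% of its exon bases with the readthrough gene RAB4B-EGLN2, which had 0 counts in all 6 libraries, so these few reads may not give its level.

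Genes that act with these hydroxylases moved in both directions. EPAS1, which encodes HIF-2α, had 4.99, 5.49 and 4.95 CPM in DMSO against 27.2, 36.1 and 29.3 CPM in treated cells, a 6.01-fold rise (edgeR adjusted p = 3.51e-17). HIF1A fell by 0.20 on the log2 scale, from 44.2 ± 0.826 to 38.4 ± 0.253 CPM, and VHL, the ubiquitin ligase subunit that recognises hydroxylated HIF, rose from 185 ± 3.54 to 302 ± 5.40 CPM. In a list of 29 HIF subunits, VHL partners and HIF targets, 27 were tested, and 6 rose and 16 fell (9 and 15 with total counts). That is 22.2% higher and 59.3% lower, beside 33.8% and 32.7% of all genes. VEGFA, the angiogenic factor, was 3.44-fold higher and SLC2A1, the glucose transporter, 1.85-fold lower, so known HIF targets went both ways.

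Of the 6 collagen hydroxylase genes 5 were tested, 2 rose, 2 fell and 1 did not pass, which is near the shares of all genes. P4HA1 and P4HA2 are alternative catalytic subunits of prolyl 4-hydroxylase, which stabilises the collagen triple helix. P4HA2 had 16.0, 14.7 and 15.9 CPM in DMSO against 25.5, 29.3 and 27.4 CPM in treated cells, a 1.77-fold rise with no overlap (log2 fold change 0.82, SE 0.09, edgeR adjusted p = 3.45e-09). P4HA1 rose by 0.49, from 43.2, 44.4 and 40.6 CPM to 58.4, 58.4 and 62.7 CPM (SE 0.06, edgeR adjusted p = 5.33e-08). P4HA1 remained the larger part of the pair per kilobase, 88.3% ± 0.874 in DMSO and 85.7% ± 0.984 in treated cells. That difference of -2.60 percentage points was -4.40 with the longest transcript as length and -4.74 without division by length. P4HA3 had 0 counts in DMSO and 1, 1 and 0 in treated cells, below the floor of 3 counts in every library. P4HB, the disulfide isomerase that forms the other subunit of the enzyme, rose from 545 ± 15.5 to 775 ± 9.37 CPM.

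The lysyl hydroxylases PLOD1 and PLOD3, whose products serve collagen cross-links and glycosylation, fell. PLOD1 had 131, 137 and 128 CPM in DMSO against 96.5, 88.2 and 91.7 CPM in treated cells. All treated libraries were below all DMSO libraries (log2 fold change -0.52, SE 0.05, edgeR adjusted p = 1.53e-10). PLOD3 fell by 0.29, from 101 ± 4.11 to 82.5 ± 2.59 CPM. PLOD2, the lysyl hydroxylase of collagen telopeptides, was nearly absent, with between 13 and 30 counts in DMSO and between 29 and 34 in treated libraries, and did not pass (edgeR adjusted p = 0.274). In a list of 12 collagen-modifying partners 10 were tested, 5 rose, 1 fell and 4 did not pass. GLT25D2, which encodes a galactosyltransferase that acts on the hydroxylysine made by the PLOD enzymes, rose 5.36-fold, from 47.1 ± 1.95 to 252 ± 6.92 CPM, while its relative GLT25D1, named after its values were seen, fell by 0.35 on the log2 scale.

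**Figure D3:**
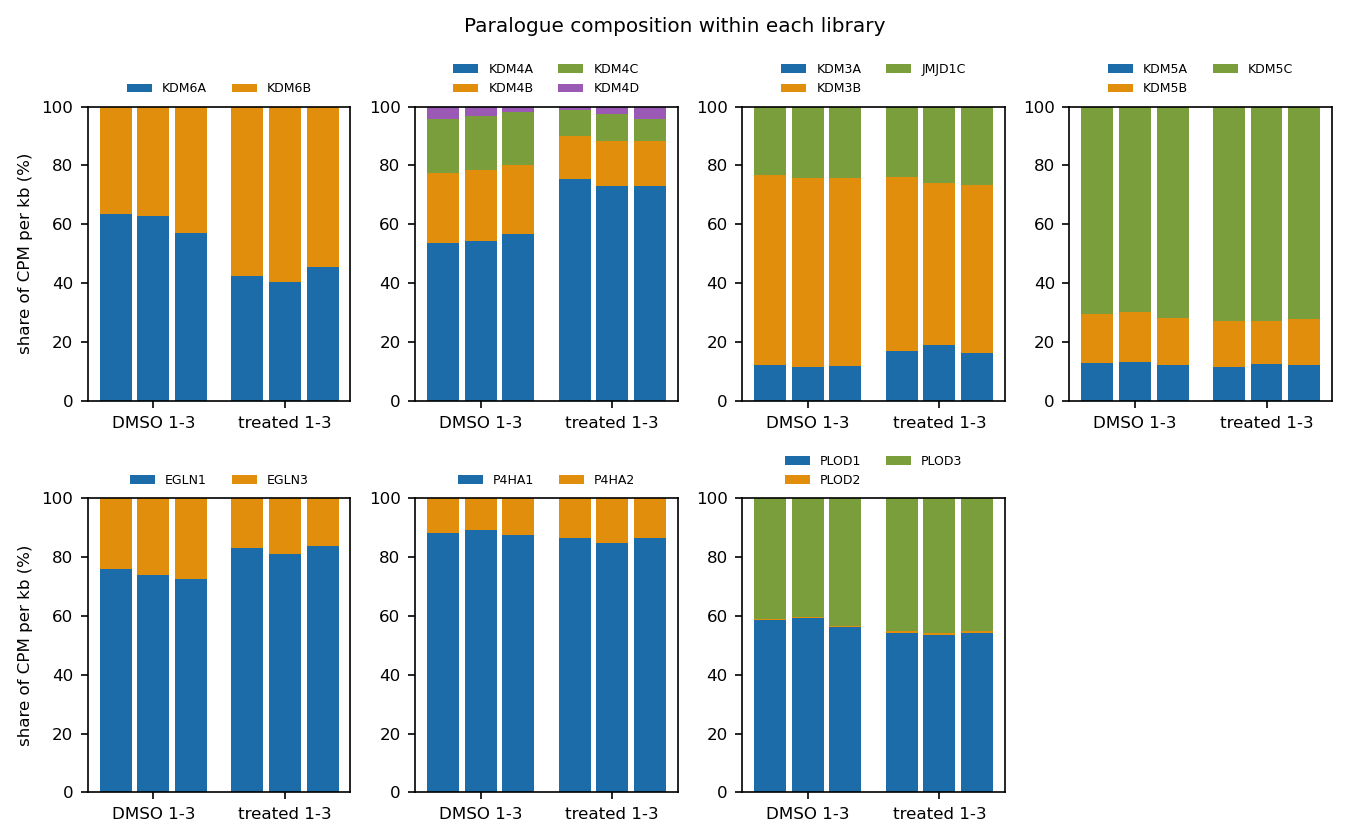
Share of each paralogue in the summed CPM per kilobase of its group (stacked bars, percent), for each of the 3 DMSO and 3 treated libraries. The largest shifts are those of KDM6B (38.8% to 57.3%) and KDM4A (54.9% to 73.7%), while KDM5C went from 70.7% to 72.6%.

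Of the 9 AlkB genes 2 rose, 5 fell and 2 did not pass, with a median log2 fold change of -0.25. Over all genes tested, 33.8% rose and 32.7% fell. Against a minimum fold change of 1.2, 1 of the 9 rose and 2 fell, beside 21.4% and 17.2% of all genes. ALKBH3, which repairs alkylated single-stranded DNA and RNA, rose from 23.3, 23.7 and 27.2 CPM to 37.9, 43.6 and 43.8 CPM. The groups did not overlap, and the rise was 1.69-fold (log2 fold change 0.75, SE 0.08, edgeR adjusted p = 1.69e-09). ASCC1, a subunit of the complex whose helicase ASCC3 unwinds DNA for ALKBH3, rose from 56.9 ± 2.06 to 91.9 ± 0.835 CPM, while ASCC3 fell by 0.31 on the log2 scale. In the list of 8 alkylation repair partners 7 were tested, and 3 rose and 3 fell. ALKBH2, the repair enzyme for double-stranded DNA, fell by 0.34, from 29.1 ± 1.37 to 22.9 ± 0.801 CPM.

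ALKBH4, which demethylates actin, fell from 20.0, 21.2 and 20.6 CPM to 10.9, 13.8 and 15.4 CPM. The treated libraries were spread but all lower (log2 fold change -0.63, SE 0.11, edgeR adjusted p = 1.05e-05). ORAI2 on the opposite strand shares 25.3% of the exon bases of ALKBH4, and it rose by 0.65. ALKBH8, which modifies the wobble uridine of transfer RNA, fell from 27.6, 25.4 and 26.5 CPM to 16.3, 19.3 and 18.9 CPM, again with no overlap (log2 fold change -0.54, SE 0.09, edgeR adjusted p = 3.58e-06). ALKBH7, a mitochondrial protein of programmed necrosis, fell by 0.35, from 33.5 ± 3.61 to 26.3 ± 0.808 CPM. The fall of ALKBH6 (-0.25, edgeR adjusted p = 0.0181) was lost with total counts (0.131) and without DMSO replicate 3 (0.0886), over a range of 0.0165 to 0.499. AC002116.1 on the same strand, also not counted, shares 25.1% of the exon bases of ALKBH6. ALKBH1, an enzyme of transfer RNA and mitochondria, had 21.4 ± 1.90 and 18.6 ± 1.78 CPM and did not pass (0.0785), but did without DMSO replicate 3 (0.0487) or treated replicate 2 (0.0444), over a range of 0.0444 to 0.771.

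The erasers of N6-methyladenosine in RNA, FTO and ALKBH5, had the smallest log2 fold changes of the 9 AlkB genes. FTO had 22.1, 20.9 and 19.8 CPM in DMSO against 21.7, 22.2 and 20.6 CPM in treated cells, with overlapping groups (log2 fold change 0.04, SE 0.09, edgeR adjusted p = 0.697). ALKBH5 had 109, 112 and 104 CPM in DMSO against 127, 108 and 118 CPM in treated cells. Its groups overlapped, and although it passed (0.12, SE 0.05, edgeR adjusted p = 0.0406), the call was lost in 8 of 13 alternatives, with DESeq2 (0.0759) and with treated replicate 1 left out (0.304) among them, and adjusted p ran from 0.000408 to 1. Of 18 writers and readers of the same mark 1 rose, 11 fell and 6 did not pass, while total counts gave 1 higher and 7 lower. Among all genes tested 33.8% rose and 32.7% fell. Against a minimum fold change of 1.2, 0 of the 18 rose and 4 fell, beside 21.4% and 17.2% of all genes. The readers IGF2BP1 and IGF2BP2 fell by 0.35 and 0.43 on the log2 scale.

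The remaining hydroxylases rose (3 of 4) or did not pass (1), where 33.8% of all genes tested rose. PHYH, the peroxisomal enzyme of phytanic acid breakdown, had 3.83, 4.59 and 4.08 CPM in DMSO against 5.89, 7.04 and 5.25 CPM in treated cells. The groups did not overlap (log2 fold change 0.54, SE 0.18, edgeR adjusted p = 0.0111). The call was lost when treated replicate 2 was left out (0.0746) and against a minimum fold change of 1.2 (0.0587), within 0.00349 to 0.0746. ASPH, which hydroxylates EGF-like domains, rose by 0.39 on the log2 scale, from a mean of 44.9 CPM in DMSO, with no overlap between the groups. OGFOD2 rose by 0.23, and it shares 35.9% of its exon bases with ABCB9 on the opposite strand, which fell by 0.32. OGFOD2 also shares 67.3% with AC026362.1 on the same strand, a gene not among the counted symbols. OGFOD1, the prolyl hydroxylase of the ribosomal protein RPS23, had 131 ± 6.20 and 122 ± 4.59 CPM and lay just above the threshold (edgeR adjusted p = 0.0521). It passed with RLE size factors (0.0435), with no filter (0.0243) and without DMSO replicate 3 (0.0296) or treated replicate 3 (0.0345), over a range of 0.0243 to 1.

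Genes whose products place or read the marks that these demethylases remove were more often lower than higher. Across the lists of H3K4, H3K9, H3K27 and H3K36 methyltransferases and their partners, 40 genes were tested and 3 rose, 22 fell and 15 did not pass, with a median log2 fold change of -0.15. Over all genes tested, 33.8% rose and 32.7% fell. With total counts 8 of the 40 rose and 17 fell. Against a minimum fold change of 1.2, 0 of the 40 rose and 9 fell, beside 21.4% and 17.2% of all genes. ASH2L and SETD1A of the H3K4 complexes fell by 0.63 and 0.52, and CBX3 and EHMT2 of the H3K9 list by 0.44 and 0.40. In the H3K27 complex PHF19 and EED fell by 0.38 and 0.41, while its alternative catalytic subunits EZH1 and EZH2 rose by 0.33 and 0.22. MLL2 of the H3K4 list, which works with KDM6A, was the other gene that rose, by 0.16, and these 3 were named after their values were seen. The H3K36 methyltransferase genes WHSC1 and NSD1 fell by 0.22 and 0.19, and the other 3 of that list did not pass. In the KDM2B Polycomb complex 1 of 8 rose (BCOR, by 0.22) and 4 fell, among them USP7 (by 0.54), and with total counts 3 rose and 4 fell. These lists were not tested against the demethylases as a group.

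**Figure D4:**
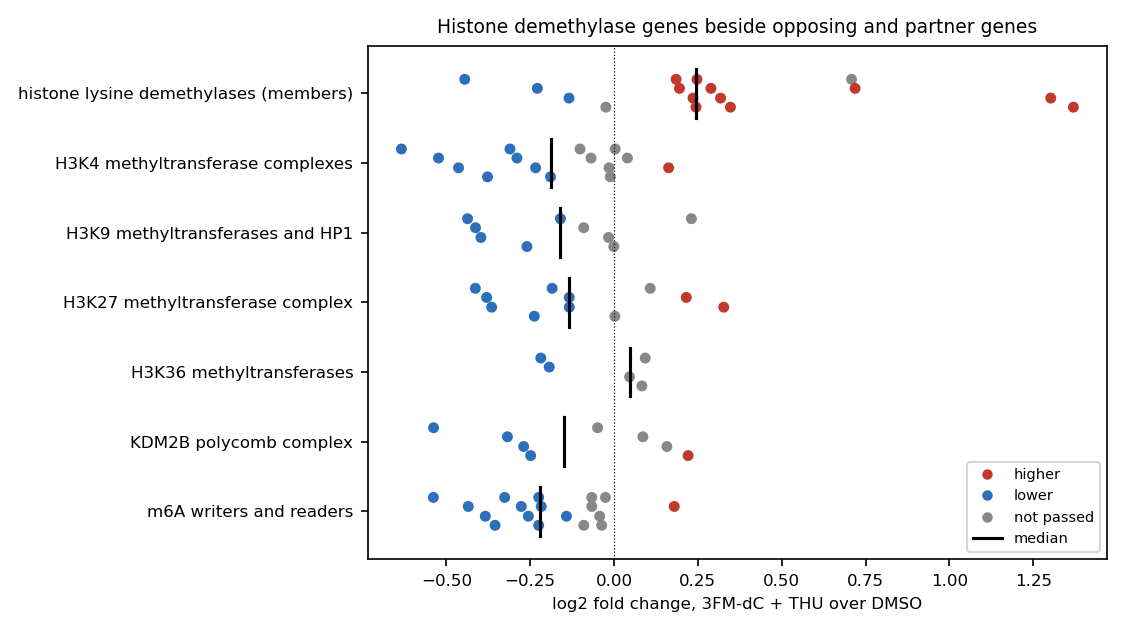
Log2 fold change of treated over DMSO cells for the 16 histone demethylase genes and for lists of opposing and partner genes, with a point for each tested gene, colour for the result of edgeR's test and a black line for the median of the list. The demethylases have a median of 0.25, and the lists of H3K4, H3K9 and H3K27 methyltransferases and of m6A proteins lie mostly below 0.

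Among the protein substrates of the family, 5 of 7 genes fell and EPAS1 alone rose, and with total counts 3 of the 7 fell. The shares of all genes tested were 33.8% higher and 32.7% lower. ETF1, which encodes the JMJD4 substrate eRF1, fell by 0.44 on the log2 scale, and DRG2, a JMJD7 substrate, by 0.52. Of 19 further 2-oxoglutarate oxygenases outside the 44, 12 were tested, 3 rose, 3 fell and 6 did not pass, and with total counts 5 rose and 3 fell. Without that scaling each share, 25.0% of the 12, was below that of all genes. JHDM1D, or KDM7A, a relative of PHF8, rose by 0.55 on the log2 scale. TET1 had the largest change of any oxygenase tested, a 2.98-fold fall from 101 ± 8.75 to 33.8 ± 4.30 CPM, larger than any fall among the 44, while TET2 and TET3 rose by 0.35 and 0.17.

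The genes that rose had longer transcripts than those that fell, with a median longest GENCODE 29 transcript of 5.92 kb against 3.13 kb. Length went with direction over all genes too. Of the 14 oxygenase genes of 6 kb or more 9 rose and 2 fell, and among all 2132 tested genes of that length 40.1% rose and 28.9% fell. Of all 2035 genes under 2 kb, 24.4% rose and 37.9% fell, while of the 5 oxygenase genes of that length 2 rose and 2 fell. The part of length in the directions above was not tested.

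In the authors' deposited table, which compares a group B with a group A that its header does not name, all 33 changed genes lay on the same side of a ratio of 1 as here. Of these, 31 had an adjusted p under 0.05 in the authors' deposited table, and PHF2 and ALKBH5 did not.

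The 7 erythroid markers of K562 that were checked summed to between 5764 and 5895 CPM in DMSO and between 3058 and 3103 CPM in treated libraries. Most of the sum was from the globins HBE1 (2665 CPM in DMSO) and HBG2 (1601 CPM), and 6 of the 7 fell while TAL1 rose by 0.11 on the log2 scale. Endothelial markers summed to at most 0.381 CPM in any library. Lymphoid markers summed to between 7.88 and 8.98 CPM in DMSO and between 9.57 and 11.3 CPM in treated libraries, and fibroblast markers to between 5.90 and 10.5 CPM over all 6 libraries, with overlapping groups. Of the fibroblast markers 2 were tested, and 1 rose and 1 fell. Epithelial markers summed to between 212 and 216 CPM in DMSO and between 118 and 125 CPM in treated libraries, nearly all of it EPCAM and KRT19. In each of these 4 lists 1 gene had 0 counts in all 6 libraries: MS4A1 (lymphoid), LUM (fibroblast), CDH5 (endothelial) and KRT5 (epithelial). These genes were named for their 0 counts, and other genes of their lists were counted. In bulk RNA, fewer cells of a kind and less RNA per cell cannot be told apart.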

How the data were processed

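Unnormalized counts for 23710 gene symbols were deposited by the authors for each of 6 libraries and used as they stood. STAR, Cufflinks, DESeq2 and the build hg19 are listed without roles, per the submitters' processing notes, and libraries were made with a directional mRNA kit, per the labels' protocols. For the counting program, its strand setting and the annotation, nothing was given in the sources used here. The 5 lines that name no gene were left out; reads in no gene were 10.9% to 13.1% and ambiguous reads 2.27% to 2.38% of each library. The authors' deposited table gives a mean normalized signal, a fold ratio and p-values for each gene, per the file headers, and served only for comparison.

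Counts were tested with edgeR 4.0.16 in R 4.3.3 (quasi-likelihood test, TMM scaling, filterByExpr with a minimum count of 10), treatment being the only term. P-values were two-sided and adjusted over 12339 genes. The standard error (SE) was the absolute log2 fold change divided by the square root of the F statistic. CPM used TMM-scaled totals. On simulated counts for the treated against DMSO comparison (12343 genes tested), all 100 genes changed 1.5-fold and all 100 changed 2-fold were recovered, with 18 other calls. The changed genes were drawn from those with a mean above 100 counts, at a single fixed dispersion. Recovery at lower counts, such as those of KDM4D, PLOD2 and JMJD7, was not tried. Levels per kilobase used the union of exons in GENCODE 29 (GRCh38), matched by symbol for all 44 genes. Transcript lengths were found for 92.1% of tested genes, and the length classes were chosen after seeing the data. Replicates differed beyond counting noise (chi-square per degree of freedom between 2.38 and 6.22) and were kept apart. Alternatives used RLE or total-count scaling, DESeq2 1.42.0, no filter or a mean of 5 CPM, a minimum fold change of 1.2 (glmTreat), a replicate block, and each library left out.

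The genes and lists were chosen with earlier results of these data known. Every one of the 44 is named, with values of each library for those that changed by at least 0.5 on the log2 scale and for EGLN1, EGLN2, EGLN3, HIF1AN, KDM6A, KDM6B, FTO and ALKBH5, and some others. Of each list without members, the 2 changed genes with the smallest p were named. Other genes were named for their role or after their values were seen.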

Additional observations from a re-analysis of the deposited data

How the results depend on the processing

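Over 13 alternatives none of the 42 tested genes reversed its direction with a call. Of the 33 changed genes 16 kept their call in every alternative. Against a minimum fold change of 1.2, 4765 genes of all changed, and 8 of the oxygenases were higher and 8 lower. In every other alternative run, between 18 and 21 were higher and between 11 and 15 lower. Leaving out each library in turn gave between 18 and 20 higher and between 13 and 15 lower. Paralogue shares kept their direction: with the longest transcript as length, the treated minus DMSO difference in percentage points was 12.1 for EGLN1 (8.48 with the union of exons), -4.40 for P4HA1 (-2.60) and 20.7 for KDM4A (18.8). Without division by length it was -4.74 for P4HA1 and 7.19 for KDM3A (5.66).

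With the replicate number as a block, 8050 genes changed, and 18 oxygenases were higher and 14 lower, the call of ALKBH5 (edgeR adjusted p = 0.0547) being the difference. Same-numbered libraries did not visibly deviate together (correlations of deviations between -0.0674 and -0.000613). No library correlated best with the library of its own number in the other group. With 3 libraries per group, such values cannot show whether same-numbered libraries were handled together. Total counts shifted the median log2 fold change of all genes from 0.01 to 0.10. Genes with few counts, such as KDM4D, PLOD2 and JMJD7, had standard errors of 0.21 to 0.38 on the log2 scale.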
